A study of Mus musculus with 10 samples.

Results

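The hemidesmosome and laminin-332 genes are 8 named genes: Itga6, Itgb4, Col17a1, Plec, Dst, Lama3, Lamb3 and Cd151. They were chosen by name for their place in 1 adhesion complex and its ligand, and all 8 were found among the 16292 genes listed in ameloblasts and the 16638 listed in the stratum intermedium. The series held 10 RNA-seq libraries laser-captured from frozen sections of mouse hemi-mandibles. Ameloblasts (AM) are the columnar epithelial cells that secrete and then mature enamel, and the stratum intermedium (SI) is the cell layer at their back. Animals labelled WT were compared with claudin-10 knockouts (KO), which lack a tight junction protein that forms paracellular ion channels, with 2 WT and 3 KO libraries for each layer. Libraries are called here by the start of their names, WT10, WT5, KO1, KO3 or KO9. Each of these 5 prefixes occurred once per layer and was read as 1 animal, although no label says so. Were they not separate animals, p-values would reflect only the variation among these libraries, possibly technical. The sources used here do not give age, strain, the stage of enamel formation, the deleted part of Cldn10 or the way the knockout was made. Sex is not labelled, but Xist read 5791 and 6616 in the KO1 and KO3 ameloblast libraries and at most 33.2 in the others, and the Y-linked Ddx3y read 0 in KO1 and KO3 and 1980 to 2357 in the others. Both WT libraries thus read as male and 2 of the 3 KO libraries as female, in both layers, so sex and genotype are partly confounded. The library names also carry a group number of unstated meaning, which is 1 for WT5 and KO3, 2 for WT10 and KO9 and 3 for KO1 alone.

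Hemidesmosomes rivet the base of an epithelial cell to its basement membrane. In them the integrin pair encoded by Itga6 and Itgb4 spans the membrane beside collagen XVII (Col17a1) and the tetraspanin CD151, while plectin (Plec) and the epithelial form of dystonin (Dst, also called BPAG1) tie the complex to keratins 5 and 14 inside the cell. The outer ligand is laminin-332, a trimer that holds the α3 chain encoded by Lama3 and the β3 chain encoded by Lamb3. Inherited loss of laminin-332, collagen XVII or the integrin pair causes junctional epidermolysis bullosa, a skin blistering disease with often thin or pitted enamel. Maturing ameloblasts lay down a laminin-332-rich basal lamina against the enamel surface.

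Short stretches of upstream sequence are shown for genes that behaved differently below, namely Col17a1 and Lamb3, which had large differences between the layers, and Dst, whose gene count adds transcripts from more than 1 start. They come from RefSeq on the build GRCm38.p6, which matched 4 of the 8 members, and each is the part of the 250 bases before a start that holds no annotated exon.
Col17a1, chr19:47692095-47692292, minus strand: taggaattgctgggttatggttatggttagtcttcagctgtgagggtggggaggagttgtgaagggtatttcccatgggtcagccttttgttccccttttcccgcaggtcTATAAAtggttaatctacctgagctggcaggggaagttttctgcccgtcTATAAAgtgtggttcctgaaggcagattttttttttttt
Lamb3, chr1:193301744-193301992, plus strand: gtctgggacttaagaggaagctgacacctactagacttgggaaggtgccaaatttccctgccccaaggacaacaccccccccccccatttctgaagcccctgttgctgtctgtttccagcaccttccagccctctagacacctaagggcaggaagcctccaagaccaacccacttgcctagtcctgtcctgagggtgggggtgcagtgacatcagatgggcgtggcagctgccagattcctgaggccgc
Dst, upstream start, chr1:34011345-34011594, plus strand: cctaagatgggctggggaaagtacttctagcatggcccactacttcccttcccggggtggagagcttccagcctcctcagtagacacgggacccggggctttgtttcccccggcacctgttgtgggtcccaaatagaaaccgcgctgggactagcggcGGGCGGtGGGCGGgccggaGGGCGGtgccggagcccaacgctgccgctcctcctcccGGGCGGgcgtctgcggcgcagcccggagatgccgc
Dst, downstream start, chr1:34160010-34160259, plus strand: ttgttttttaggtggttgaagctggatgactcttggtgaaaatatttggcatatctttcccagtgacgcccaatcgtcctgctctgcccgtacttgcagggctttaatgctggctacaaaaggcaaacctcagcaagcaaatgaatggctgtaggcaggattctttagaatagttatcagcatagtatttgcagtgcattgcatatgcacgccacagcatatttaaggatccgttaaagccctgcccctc
The capitals mark matches to TATAAA in Col17a1 and to GGGCGG, the core of a GC box, in Dst. The letters TGANTCA (an AP-1 core), TATAAA and GGGCGG were searched on both strands, and no motif overlapped another. Among 32851 RefSeq windows of 250 bases, 6.75% held TGANTCA, 12.4% held TATAAA and 32.7% held GGGCGG. Col17a1 held TATAAA 2 times, starting 140 and 91 bases before the RefSeq start. The upstream Dst window held GGGCGG 4 times, while the downstream Dst window and the Lamb3 window held none of the 3 motifs. The deposited gene counts sum all starts of a gene, so the data below cannot be assigned to either Dst window.

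In GRCm38 the members lie on 7 chromosomes, and only Dst and Lamb3 share one. Itga6 spans chr2:71745616-71858416, Itgb4 chr11:115974709-116008412, Dst chr1:33908225-34308661 and Cd151 chr7:141467392-141471473, all on the plus strand. Col17a1 (chr19:47646344-47692094) and Plec (chr15:76170974-76232574) lie on the minus strand. Lama3 lies on chromosome 18. Lamb3 (chr1:193207699-193343878, plus strand) shares its span with 4 annotated genes, 3 of them on the other strand, and Plec with Parp10 on its own strand. The library kit keeps strand, but no source used here says whether the counting used it, so reads of overlapping genes may be mixed in Lamb3 and Plec. Itga6, Itgb4 and Lama3 each overlap 1 annotated gene on the other strand, and the same limit applies to them.

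The values are normalized counts, the authors' read counts per gene divided by a size factor for each library. They summed to between 21006977 and 26856177 per library, and the number of reads behind them is unknown. Cldn10, the targeted gene, had lower values in all KO than in all WT libraries within a layer, with 600 and 752 against 149 to 408 in ameloblasts and 7257 and 2365 against 387 to 1003 in the stratum intermedium. A list of 10 ameloblast markers, 9 of them listed in ameloblasts, made up 2.22% to 9.17% of each ameloblast library and 0.130% to 0.951% of each stratum intermedium library. Amelx had the largest value of these markers in every library. Amelx, Ambn and Mmp20 were higher in every ameloblast library, and the other genes listed in both layers overlapped. Odam was higher in the stratum intermedium in WT10 (2649 against 128), KO1 (3987 against 1159) and KO9 (897 against 88.2). The summed share of 12 stratum intermedium and papillary layer markers overlapped between the layers, with 0.312% to 0.645% in ameloblasts and 0.410% to 0.890% in the stratum intermedium. Gja1 had the largest value of this list in every library. Alpl (6714 to 15829 in ameloblasts, 16866 to 31622 in the stratum intermedium) and Sfrp5 were higher in every stratum intermedium library. The other genes of the list overlapped between the layers over all libraries. A list of 8 odontoblast and pulp markers took 3.60% to 6.57% of the ameloblast and 2.57% to 7.41% of the stratum intermedium libraries. Col1a1, Col1a2 and Ibsp, which are also bone genes, had its largest values in every library, so the list does not separate pulp from bone. The share of 8 endothelial markers was 0.00815% to 0.0280% in ameloblasts and 0.0376% to 0.0498% in the stratum intermedium. Its part in the layer differences below was not tested. WT5 and KO3, the libraries of group number 1, stood apart within ameloblasts. Of 9 oral epithelium markers, the 6 listed summed to 0.151% in WT5 and 0.0461% in KO3 but to between 0.00233% and 0.00395% in the other 3. Krt4, a keratin of stratified mucosa, read 19049 in WT5 and 4815 in KO3 against 75.0, 76.8 and 1.10 in WT10, KO1 and KO9.

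Most members were higher in ameloblasts than in the stratum intermedium, with plectin and, in some prefixes, Lama3 as exceptions. Relative to the median gene, 7 of 8 members were higher in ameloblasts in all 5 prefixes, against 11.1% of all 15567 genes measured in both layers. Since the 2 layers were normalized in separate tables, this difference is described and was not tested. The median gene itself lay 0.108 to 0.173 lower in ameloblasts on the log2 scale, and that shift was taken off. Without WT5, the mean layer difference still ran from 0.03 for Plec to 2.88 for Lamb3. Higher ameloblast values were not particular to the members. Krt14 (mean 1.43), Krt5 (0.80) and the laminin receptor Bcam (1.70) were also higher in all 5 prefixes, Itga3 in 4 and Itgb1 in 3. Relative to the mean of Krt5 and Krt14, a scale chosen after the data were seen, Itga6 averaged -2.35 in ameloblasts and -2.24 in the stratum intermedium. Dst (-2.06 against -1.78), Cd151 (-2.74 against -2.54) and Plec were likewise not higher in ameloblasts. Itgb4 (-3.09 against -3.70), Col17a1, Lamb3 and, barely, Lama3 were. In bulk samples like these, fewer cells of a type and less RNA per cell cannot be told apart.

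**Figure D1:**
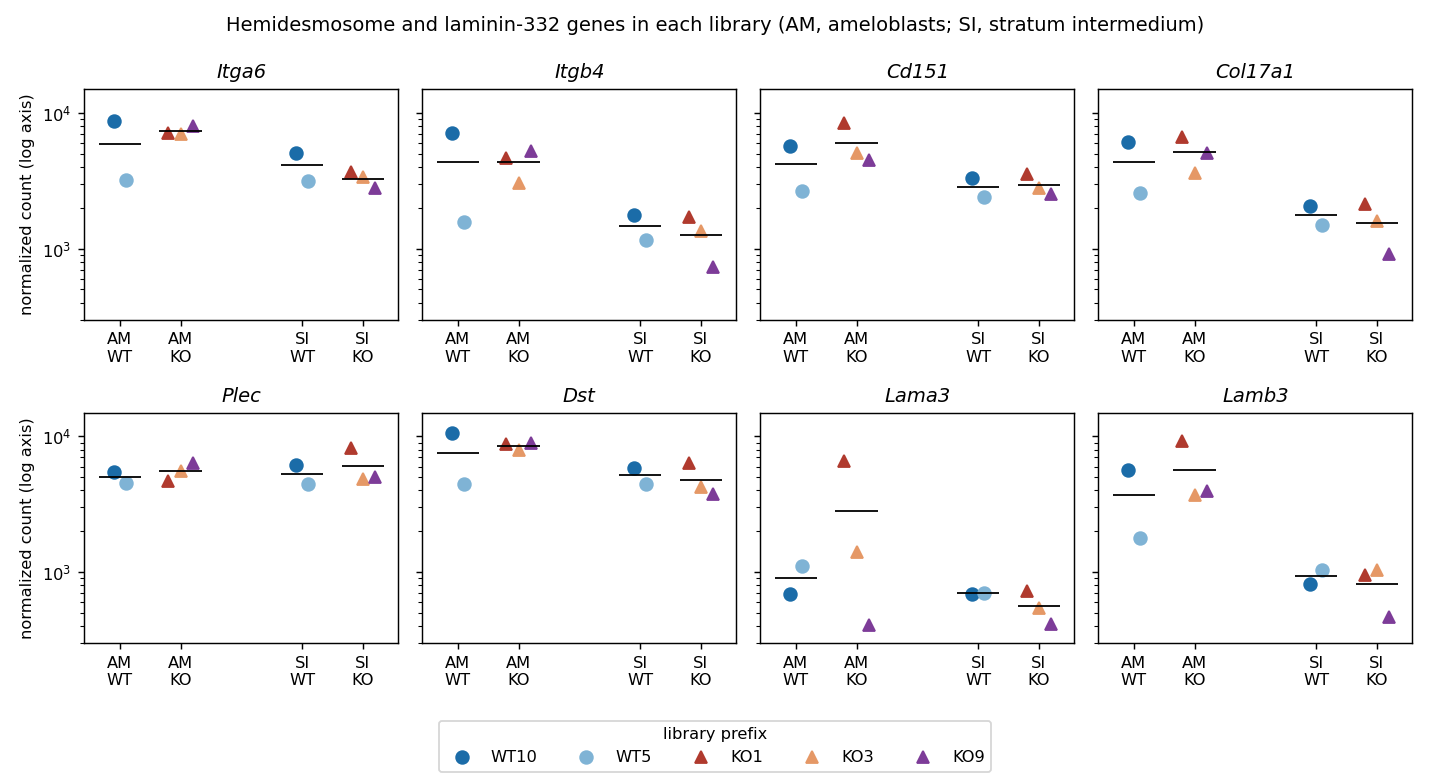
Normalized counts of the 8 genes in each library on a log axis, with ameloblasts (AM) and stratum intermedium (SI) split by genotype. Circles are WT and triangles KO libraries, coloured by prefix, and lines are group means. The WT5 ameloblast library is lowest in 7 of the 8 ameloblast panels, and Lama3 in KO1 stands far above the other 4.

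The integrin pair carried a clear layer difference that was larger for the β4 than for the α6 chain. In ameloblasts Itgb4, which pairs only with α6, measured 7093 and 1563 normalized counts in WT10 and WT5 and 4681, 3026 and 5229 in KO1, KO3 and KO9. Stratum intermedium values were 1766 and 1155 in the WT and 1698, 1348 and 736 in the KO libraries, in the same order of prefixes. All ameloblast libraries except WT5 lay above every stratum intermedium library. The mean log2 difference was 1.73 ± 0.89 (SD, n = 5 prefixes), from 0.61 in WT5 to 3.00 in KO9. Itga6, whose chain can also pair with β1, read 8688 and 3183 in the WT ameloblast libraries and 7056, 6934 and 8052 in the KO ones. Its stratum intermedium values were 5030 and 3152 in the WT and 3632, 3344 and 2812 in the KO libraries. WT5 alone was at the level of the stratum intermedium, and the mean log2 difference was 1.02 ± 0.55 (SD, n = 5). Itgb1, the other laminin-binding β chain, differed by 0.17 ± 0.26 and was above the median gene in 3 of 5 prefixes.

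Cd151 and Col17a1, the other membrane members, had the same direction. Cd151, which binds α6 and α3 integrins sideways in the membrane, measured 5684 and 2646 in the WT and 8338, 5031 and 4451 in the KO ameloblast libraries. The stratum intermedium had 3325 and 2391 in the WT and 3509, 2808 and 2503 in the KO libraries, a narrower range. Its mean log2 layer difference of 0.92 ± 0.39 had the smallest SD of the 8 members. Col17a1, the collagenous transmembrane protein of the complex, measured 6102 and 2545 in the WT and 6664, 3624 and 5073 in the KO ameloblast libraries. The stratum intermedium held 2059 and 1487 in the WT and 2129, 1601 and 910 in the KO libraries, so the layers did not overlap. The log2 difference of Col17a1 was 1.68 ± 0.63 (SD, n = 5), from 0.95 in WT5 to 2.65 in KO9.

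The 2 keratin linkers separated from each other. Dst measured 10574 and 4457 in the WT and 8828, 7943 and 8954 in the KO ameloblast libraries. For the stratum intermedium the values of Dst were 5881 and 4479 in the WT and 6403, 4222 and 3771 in the KO libraries, and only the WT5 ameloblast library fell within that range. Its log2 layer difference was 0.84 ± 0.48 (SD, n = 5), and it was above the median gene in 5 of 5 prefixes. Plec, which also links other filaments in many cell types, measured 5441 and 4576 in the WT and 4670, 5549 and 6374 in the KO ameloblast libraries. It measured 6170 and 4471 in the WT and 8270, 4841 and 5055 in the KO stratum intermedium libraries, and the layers overlapped throughout. The log2 difference of Plec was 0.06 ± 0.47, above the median gene in 3 of 5 prefixes.

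Lamb3 had the widest layer difference of the 8 members, and Lama3 the least even one. Lamb3, the β3 chain, measured 5686 and 1780 in the WT and 9239, 3700 and 3986 in the KO ameloblast libraries. Its stratum intermedium values were 823 and 1041 in the WT and 961, 1046 and 469 in the KO libraries, all below the lowest ameloblast library. The mean log2 difference was 2.50 ± 1.03 (SD, n = 5), from 0.95 in WT5 to 3.41 in KO1. Lama3, the α3 chain, measured 690 and 1111 in the WT and 6610, 1403 and 410 in the KO ameloblast libraries, against 695 and 700 in the WT and 731, 549 and 414 in the KO stratum intermedium libraries. WT10 and KO9 thus had nearly equal Lama3 values in both layers, slightly lower in ameloblasts before the median gene was taken off (log2 differences of 0.10 and 0.16 after it), and KO1 was 16.1 times KO9 within ameloblasts. The Lama3 log2 difference of 1.19 ± 1.32 became 0.65 ± 0.66 (SD, n = 4) without KO1.

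**Figure D2:**
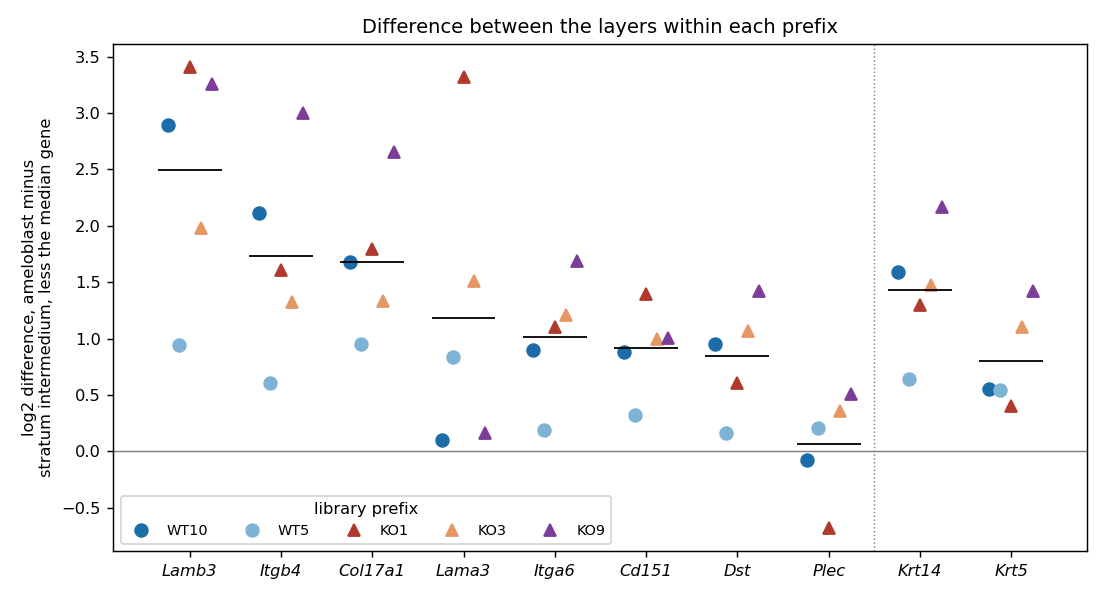
Log2 difference between ameloblasts and stratum intermedium within each prefix, less the median gene of that prefix, for the 8 genes and, right of the dotted line, for keratins 14 and 5. Lines are means over 5 prefixes. Lamb3 averages 2.50 and Plec 0.06, and Lama3 spreads widest.

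Per kilobase of exon, which allows genes to be compared, Cd151 had the highest level in both layers, with 1908 ± 756 (SD, n = 5) normalized counts per kilobase in ameloblasts and 1061 ± 180 in the stratum intermedium. In ameloblasts Col17a1 (799 ± 285), Itga6 (752 ± 237), Lamb3 (738 ± 424) and Itgb4 (616 ± 302) followed and did not differ beyond their spread. Plec (294 ± 40.5), Dst (198 ± 55.2) and Lama3 (190 ± 240) came last per kilobase. In the stratum intermedium the order after Cd151 was Itga6 (398 ± 94.9), Plec (318 ± 85.0), Col17a1 (272 ± 82.1), Itgb4 (191 ± 60.0), Lamb3 (131 ± 36.4), Dst (120 ± 27.5) and Lama3 (57.5 ± 12.5), and neighbours up to Dst lay within each other's spread. Lamb3 was thus at rank 4 in ameloblasts and 6 in the stratum intermedium, and Plec at rank 6 and 3. The exon length is the union over all annotated transcripts, which lowers the value of a gene such as Dst whose cells use only part of it.

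Within a layer, most members varied together from library to library. Over the 10 libraries, with log2 values centred within each layer, Itgb4 correlated with Dst at r = 0.94, with Col17a1 at r = 0.94 and with Itga6 at r = 0.91. These 4 genes correlated with Krt14, the keratin to which the complex is anchored, at r = 0.93, 0.94, 0.88 and 0.92 in the order Itgb4, Dst, Col17a1 and Itga6. The points share libraries, size factors and, by pairs, mice, so these values are descriptions with no test. In ameloblasts Krt14 read 98317 and 16697 in WT10 and WT5 and 62948, 44661 and 49420 in KO1, KO3 and KO9, and the lowest was again WT5. WT5 was the lowest ameloblast library for 7 of 8 members, all but Lama3, and KO9 the lowest stratum intermedium library for 6 of 8. Without the WT5 ameloblast library, Itgb4 still correlated with Col17a1 at r = 0.91, with Dst at r = 0.87 and with Krt14 at r = 0.85 over 9 libraries, while Cd151 with Itga6 went from r = 0.75 to 0.29. WT5 was also the ameloblast library with the highest oral epithelium share (0.151%). It was highest as well for the lists of red blood cells (1.28% against 0.0814% to 0.244%), osteoclasts (0.759% against 0.102% to 0.453%), odontoblasts and pulp (6.57%), fibroblasts (0.577%), skeletal muscle (0.328%), immune cells (0.0438%), nerve (0.0345%) and endothelium (0.0280%). The part of these shares in the low member values of WT5 was not tested.

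**Figure D3:**
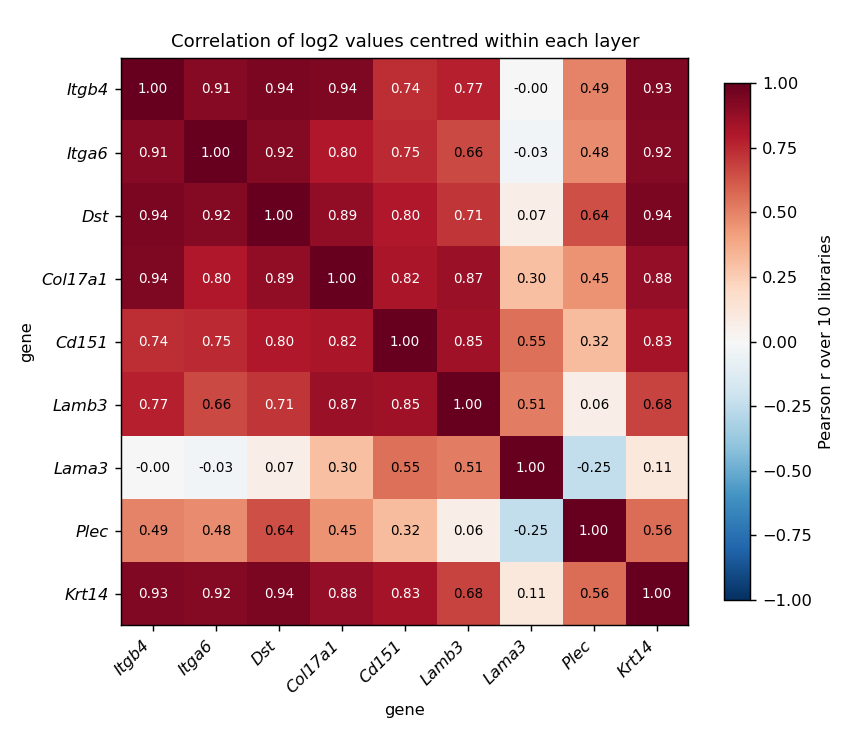
Pearson correlation over 10 libraries between the members and Krt14, on log2 values centred within each layer, with red for positive and blue for negative values. Itgb4, Itga6, Dst and Col17a1 form a block with Krt14, and Lama3 lies outside it, at r = -0.0043 with Itgb4 and 0.11 with Krt14.

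The genes most like Itgb4 over the 10 libraries, among 15567 measured in both layers, were Adamts17 (r = 0.992), Pdlim1 (0.969), Gsk3b (0.968), Itpr3 (0.968) and Coro2a (0.953). Adamts17 encodes a secreted metalloprotease and Pdlim1 an actin-associated adaptor. Those most like Lamb3 were Plod2 (r = 0.994), a collagen lysyl hydroxylase, Mfge8 (0.966), Mavs (0.951), Ccdc50 (0.949) and Hbs1l (0.941). Neither list contained another member. These genes were picked as the highest of so many over 10 points, and their values are a description.

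Lama3 and Lamb3, whose products join in 1 trimer, did not move together across the ameloblast libraries. KO1 was highest for both, at 4.71 times the next library for Lama3 and 1.63 times for Lamb3. At the other end, KO9 and WT10 were lowest for Lama3, while WT5 was lowest for Lamb3 and WT10 was next to the top. Lama3 and Lamb3 correlated at r = 0.51 over 10 libraries, which became -0.08 over 9 without the KO1 ameloblast library and 0.67 without the WT5 one. Lama3 correlated with Itga6, Itgb4 and Dst at r = -0.03, -0.0043 and 0.07, and with Cd151 at r = 0.55, which became -0.07 without KO1 and 0.79 without WT5. The stratum intermedium libraries held Lama3 between 414 and 731 and Lamb3 between 469 and 1046, and KO9 was lowest for both.

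The ameloblast KO1 library was also the highest for enamel matrix genes. Enam, which encodes enamelin of the secretory-stage matrix, measured 405084 in KO1 and 86123, 62932, 71853 and 26559 in WT10, WT5, KO3 and KO9. Enam correlated with Lama3 at r = 0.77 over 10 libraries, and both were highest in KO1 and lowest in KO9 among ameloblast libraries. WT10 broke that order, next to the top for Enam and next to the bottom for Lama3. KO1 stood far above the rest for both genes, and r with Enam was not computed without it. The relation was not limited to Lama3, since Lamb3 correlated with Enam at r = 0.71 and with Mmp20 at r = 0.83, where Lama3 had r = 0.55 with Mmp20. The ameloblast marker list as a whole took 9.17% of KO1 and 2.22% of KO9. Odam and Amtn, which encode proteins of the atypical basal lamina of maturing ameloblasts, had another pattern. Odam read 128 and 88.2 in WT10 and KO9 and 1004, 1159 and 1057 in WT5, KO1 and KO3. Amtn read 78.2, 65.0 and 103 in WT10, KO9 and KO3 and 364 and 377 in WT5 and KO1. WT10 and KO9, the 2 libraries lowest for Lama3, were thus also the lowest for Odam and Amtn, and they share group number 2, while KO1 is the one library of group number 3. The stage captured in each library is not given. The parts of stage and group number in these values were not tested.

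**Figure D4:**
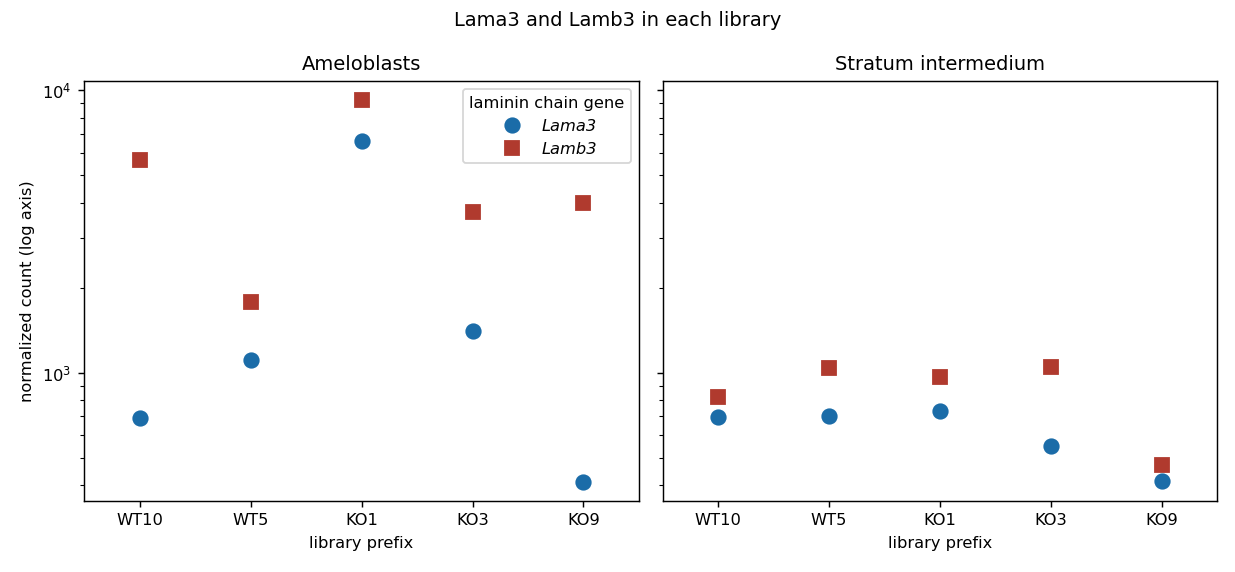
Normalized counts of Lama3 and Lamb3 in each library on a log axis, ameloblasts left and stratum intermedium right. Lamb3 is above Lama3 in all 10 libraries, by most in the ameloblast libraries WT10 and KO9.

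Ratios within a library do not depend on the scaling of the tables, so they can be set side by side between the layers. The log2 ratio of Lamb3 to Lama3 was 3.04, 0.68, 0.48, 1.40 and 3.28 in the ameloblast libraries of WT10, WT5, KO1, KO3 and KO9 and 0.24, 0.57, 0.40, 0.93 and 0.18 in the stratum intermedium. It was higher in ameloblasts in every prefix, by 1.31 on average (two-sided exact sign-flip permutation p = 0.063, adjusted p = 0.469). The log2 ratio of Itgb4 to Itga6 was likewise higher in ameloblasts in every prefix, by 0.71 (exact sign-flip permutation p = 0.063, adjusted p = 0.469). With 5 prefixes, 0.063 is the smallest p these sign flips can give, so neither could pass 0.05. Dst to Plec differed by 0.78 (exact p = 0.125, adjusted p = 0.469). Col17a1 to Itgb4 and Cd151 to Itga6 differed by -0.05 and -0.10 (exact p = 0.812 and 0.688, both adjusted p = 1). Col17a1 to Itgb4 was the steadiest ratio in the stratum intermedium, between 0.22 and 0.36 in all 5 libraries. Between KO and WT, none of the 5 ratios passed in either layer. The exact permutation p-values over 10 arrangements ran from 0.1, the smallest possible, to 1 (adjusted over all 15 ratio tests, 0.469 to 1). The one at 0.1 was Cd151 to Itga6 in the stratum intermedium, which was higher in all 3 KO libraries (-0.05 to -0.25) than in both WT libraries (-0.40 and -0.60).

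The loss of claudin-10 was not followed by a detectable change of any member in ameloblasts. Log2 differences, KO minus WT, came from limma on log2(normalized count + 1) with Benjamini-Hochberg adjustment over all 16212 genes and a threshold of 0.05. None of the 8 passed, nor did any other gene (0.0%), while 498 genes had an unadjusted p under 0.05. The targeted gene Cldn10, at -1.38 (SE 0.46, limma adjusted p = 0.989), was itself not called, so a change of that size could be missed here. At that unadjusted p, 0 of 8 members were higher in KO (2.25% of all genes) and 0 lower (0.82%). The largest estimates were Lama3 at 0.83 (SE 1.02, 95% interval -1.58 to 3.25), Lamb3 at 0.69 (SE 0.58, -0.68 to 2.06) and Cd151 at 0.56 (SE 0.41, -0.41 to 1.52), each with an adjusted p of 0.989 from limma. Itga6 followed at 0.48 (SE 0.41), Itgb4 and Col17a1 at 0.33 (SE 0.60 and 0.42), Dst at 0.32 (SE 0.37) and Plec at 0.14 (SE 0.23). For Plec the interval reached from -0.41 to 0.69, so a change beyond those bounds lies outside it, and the Lama3 interval leaves both a large rise and a large fall possible.

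All 8 ameloblast estimates were above 0, as were 53.0% of all genes, but 5 of them changed sign without WT5, and Lama3 without KO1. In no member did the KO libraries lie all above (9.09% of all genes) or all below (9.26%) the WT libraries. WT10 was among the highest libraries for Itga6, Itgb4, Col17a1 and Dst, and WT5 the lowest, so the 3 KO libraries lay between the WT pair or overlapped it. Without WT5, 3 of 8 estimates stayed above 0, and Itgb4 became -0.76, Dst -0.30, Col17a1 -0.30, Itga6 -0.24 and Lamb3 -0.14. Without WT10, all 8 were above 0, with Lamb3 at 1.53, Itgb4 at 1.43 and Itga6 at 1.20, and the smallest adjusted p from limma was 0.514. In these fits the lone WT library was assumed to vary like the KO ones. Without KO3, the other library with oral epithelium keratins, all 8 were above 0. Without KO1, Lama3 became -0.21. Relative to the mean of Krt5 and Krt14 in each library, an alternative chosen after the data were seen, Itgb4 differed by 0.04, Dst by 0.02 and Col17a1 by 0.04 between KO and WT (exact permutation p = 1, 0.9 and 1). On that scale Lama3 differed by 0.54, Lamb3 by 0.40, Cd151 by 0.26, Itga6 by 0.18 and Plec by -0.16 (exact permutation p from 0.6 to 1).

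**Figure D5:**
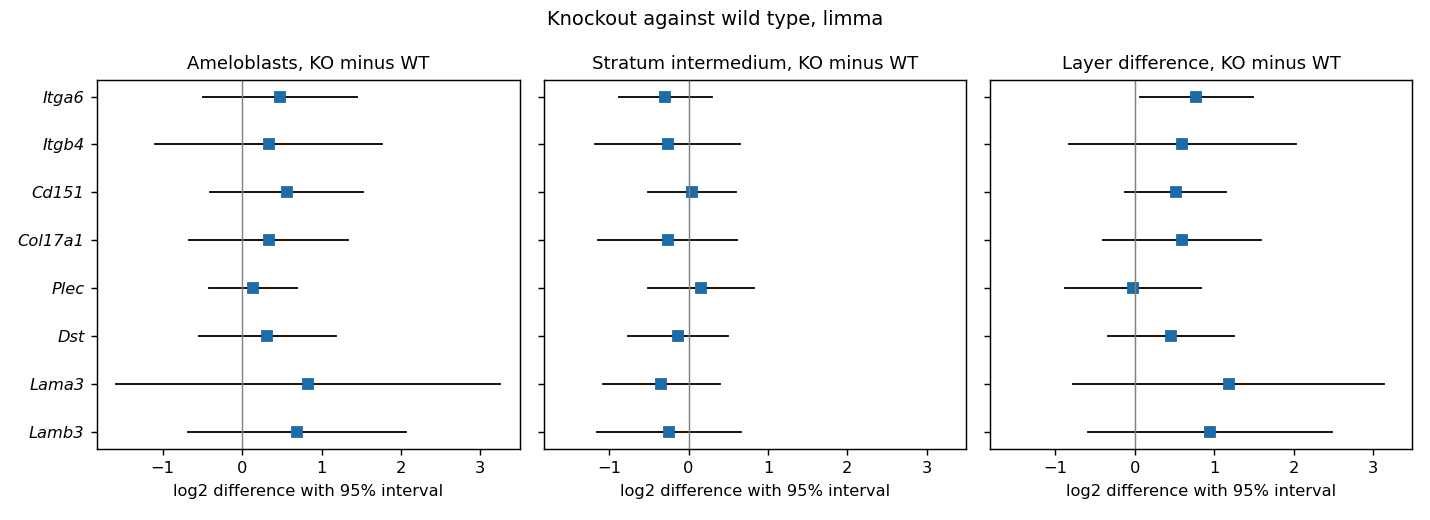
Log2 difference with its 95% interval from limma for each gene: KO minus WT in ameloblasts (left) and in the stratum intermedium (middle), and the KO minus WT difference of the layer difference (right), all on 1 scale. The intervals include 0 everywhere except for Itga6 on the right, where the adjusted p was 0.836.

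In the stratum intermedium, where Cldn10 was 4811 ± 3459 (SD, n = 2) in WT and 618 ± 335 (SD, n = 3) in KO, no member changed detectably either. None of the 8 passed and none of 16543 genes did (0.0%), with 340 genes at an unadjusted p under 0.05. Cldn10, at -2.87 (SE 0.56), was among those that did not pass. At that unadjusted p, 0 of 8 members were higher in KO (1.27% of all genes) and 0 lower (0.786%). Estimates above 0 were found for 2 of 8 members, Plec at 0.16 (SE 0.28) and Cd151 at 0.05 (SE 0.24), beside 51.9% of all genes. The others were Lama3 at -0.34 (SE 0.31), Itga6 at -0.30 (SE 0.25), Itgb4 and Col17a1 at -0.26 (SE 0.39 and 0.37), Lamb3 at -0.25 (SE 0.38) and Dst at -0.14 (SE 0.27). No member had all KO libraries above (7.76% of all genes) or below (7.44%) the WT ones. The 95% intervals were narrower than in ameloblasts for 7 of 8 members, all but Plec, and for Cd151 ran from -0.51 to 0.60. Without KO9, the lowest library for 6 members, 6 of 8 estimates were above 0. Without WT5 none was, and Itga6 reached -0.63 (limma adjusted p = 0.417). With sex as a covariate, no estimate was above 0, and Lamb3 was -0.98, Itgb4 -0.95 and Col17a1 -0.94. That fit sets KO9 alone against the WT libraries, so these estimates rest on 1 KO library.

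The difference between the layers was then compared between genotypes, over 1 log2 difference per prefix, ameloblasts less stratum intermedium. No gene of 15567 passed adjustment (0.0%), and 802 had an unadjusted p under 0.05. Itga6 was the 1 member with an unadjusted limma p under 0.05 (0.0366, adjusted p = 0.836), where 3.12% of all genes had such a p with a higher KO value. Its layer difference, before the median gene was taken off, averaged 0.40 in WT and 1.18 in KO, a difference of 0.77 (SE 0.30, 95% interval 0.06 to 1.48). Itga6 and Cd151 (0.51, SE 0.27, limma adjusted p = 0.836) were the 2 members with every KO prefix above every WT prefix, as 10.9% of all genes were. Without the WT5 pair the Itga6 value was 0.39 and that of Cd151 0.20. The other estimates were Lama3 at 1.18 (SE 0.83), Lamb3 at 0.94 (SE 0.65), Itgb4 at 0.60 (SE 0.61), Col17a1 at 0.60 (SE 0.42), Dst at 0.45 (SE 0.34) and Plec at -0.02 (SE 0.36). Without WT5, Itgb4 and Lamb3 turned to -0.19 and -0.06.

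Around the members, the rest of the adhesion system was read from gene lists, in which no gene passed adjustment in either layer. Counts below use an unadjusted limma p under 0.05, which 2.25% of all genes met as higher and 0.82% as lower in KO ameloblasts, and 1.27% and 0.786% in the stratum intermedium. Medians stand beside a median of 0.04 over all genes in ameloblasts and 0.02 in the stratum intermedium. Of the 9 other laminin chains, 0 were higher or lower in ameloblasts (median 0.36) and 1 was higher in the stratum intermedium (median 0.12). That gene was Lamc3, the γ3 chain, with 214 ± 73.4 in WT and 482 ± 182 in KO (log2 difference 1.13, SE 0.46, limma adjusted p = 1.00). Of 23 other basement membrane genes, 1 was higher in each layer. In ameloblasts it was Frem1, part of the Fraser complex beneath epithelia, with 201 ± 94.3 in WT and 407 ± 31.3 in KO. In the stratum intermedium it was Nid1, the nidogen that bridges laminin and collagen IV, with 4538 ± 1172 and 6793 ± 518.

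Of 14 other laminin receptors and partners, 1 was higher in ameloblasts and 0 changed in the stratum intermedium. Itga2, the α2 chain of a collagen and laminin receptor, measured 982 ± 252 (SD, n = 2) in WT and 1924 ± 426 (SD, n = 3) in KO ameloblasts, a log2 difference of 0.97 (SE 0.30, limma adjusted p = 0.989). Itga3, whose product binds laminin-332 with β1 outside hemidesmosomes, differed by 0.47 (SE 0.35) in ameloblasts and -0.64 (SE 0.50) in the stratum intermedium, and Itgb1 by 0.17 (SE 0.23) and 0.10 (SE 0.20). The list of 15 cytoplasmic partners also holds genes that are not hemidesmosome parts, such as Evpl. Of these 15, 2 were higher and 1 lower in ameloblasts and 0 in the stratum intermedium. Krt17, a keratin of stressed and stratum intermedium epithelium, measured 8021 and 4777 in WT10 and WT5 and 25289, 18485 and 9220 in KO1, KO3 and KO9. Every KO ameloblast library was above both WT ones for Krt17, and all 3, like the WT10 library, lay within its stratum intermedium range of 7481 to 45342. Tuft1 (105 ± 16.4 against 249 ± 109) was the other higher one, and Evpl, the cornified envelope plakin envoplakin, was lower (825 ± 261 against 466 ± 62.9). The stratum intermedium marker share, whose list includes Krt17, was 0.312% and 0.404% in the WT and 0.535% to 0.645% in the KO ameloblast libraries, and its part in these differences was not tested.

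Of 9 genes tested among 11 for laminin-332 processing and turnover, Mmp9 was lower in KO ameloblasts (27267 ± 11773 against 10969 ± 6212, log2 difference -1.44, SE 0.57, limma adjusted p = 0.989), and 0 changed in the stratum intermedium. Mmp9 is also a leading osteoclast gene, and the share of the osteoclast list was 0.346% to 0.759% in WT and 0.102% to 0.453% in KO ameloblasts. Mmp20, the enamel matrix protease, differed by 0.49 (SE 0.51) in ameloblasts and -0.86 (SE 0.71) in the stratum intermedium. Of 3 genes tied to the ameloblast atypical basal lamina, 0 changed in either layer. Odam differed by 0.41 (SE 1.29) and 0.04 (SE 0.72), and Amtn by -0.31 (SE 0.92) and 1.06 (SE 0.74), in ameloblasts and stratum intermedium in turn. Of 10 regulators of basal epithelial cells, 0 changed in the stratum intermedium. Trp63, which encodes p63, the master regulator of stratified epithelia, differed by 0.76 (SE 0.35, limma adjusted p = 0.989) in ameloblasts and -0.34 (SE 0.42) in the stratum intermedium. Its ameloblast values were 3525 and 1643 in WT10 and WT5 and 3418, 4545 and 4398 in KO1, KO3 and KO9, so its lowest library was again WT5.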

How the data were processed

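RNA of laser-captured ameloblasts and stratum intermedium was measured in 10 libraries. Capture from frozen slides took at most 2 h, per the labels' protocols, and stranded polyA libraries were made from 1 µg of RNA with an integrity number above 8. The authors deposited 1 signal table per layer, holding DESeq2-normalized counts per gene. Per the submitters' processing notes, the build was GRCm38 and the tools were DESeq, featureCounts, STAR 2.5.2b, Picard 2.8.1 and FastQC, with no settings given. The table names give Ensembl release 101 and mention that unnamed outliers had been removed. Every listed gene reached 10 in 3 or more libraries, so all 8 members passed this floor in both layers, and lower genes were not seen. Only 16.0% to 63.7% of low values lay near whole steps, so reads could not be recovered, no count test was made and the depth is unknown.

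The members and gene lists were chosen with earlier results of these data known. Differences were tested with limma 3.58.1 (R 4.3.3, mean-variance trend, two-sided, log2 with a pseudocount of 1, mean of at least 10), which understates changes of low genes, with adjustment over all genes of the table and a threshold of 0.05. Paired layer differences used the library prefix. Deviations from the group mean correlated within a prefix at 0.201 to 0.259 for the KO prefixes and 0.311 for the WT prefixes. Deviations of 2 WT libraries mirror each other, so both WT prefixes give the same value. Unmatched prefixes were not set beside them, so these values do not test the pairing. Ratios were tested by exact permutation or sign flips. Genes named from a list had an unadjusted p under 0.05, at most 4 per list and layer, and Itgb1, Itga3, Krt5, Krt14, Amtn, Odam, Trp63 and Mmp20 were added for their role. Some genes of these lists are not reported here. The 5 genes most like Itgb4 and Lamb3 were named by Pearson r. Positions and exon lengths came from GENCODE M21. Limma was tested on simulated data, in which smaller changes were mostly not called and many of the largest were missed too. A gene not called may therefore still have changed, even by a large amount. The alternatives were other pseudocounts, filters, normalizations, variance models and thresholds, an unpaired fit, and leaving out each library. Replicate number, library group number or sex (read from Xist) also served as terms. Library weights used statmod 1.5.0, permutations scipy 1.17.1 in Python 3.11.15 and figures matplotlib 3.10.9.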

Additional observations from a re-analysis of the deposited data

How the results depend on the processing

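None of the 8 members passed the adjusted threshold under any alternative, in either layer or in the layer difference. Of the counts of genes past it, all were 0 except that leaving out prefix WT5 gave 0 to 1 for the layer difference over the left-out prefixes. Of 408 member estimates under alternatives, 373 kept their direction and 35 did not. The other threshold, the other filters and 1 of the variance models could not change an estimate. The 373 therefore overstate how steady the directions were. Of 105 ratios, 86 kept their direction and 19 did not. Counts at an unadjusted p moved by over 1.5 times when a library was left out, with 244 to 1489 genes in ameloblasts (498 with all), up to 1713 in the stratum intermedium (340) and 489 to 1854 for the layer difference (802, and 412 in the unpaired fit). Fewer libraries enter each such fit, and the cause was not tested further.

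With the replicate number as a replicate block, which drops KO replicate 3, the stratum intermedium gave 185 genes at an unadjusted p, and estimates there turned to 0.084 for Itgb4, 0.078 for Col17a1, 0.019 for Dst and 0.12 for Lamb3. In ameloblasts Lamb3 under the replicate block was 0.93 (limma adjusted p = 0.999). Deviations of WT and KO libraries with the same replicate number correlated at 0.0862 and -0.116 in ameloblasts and -0.186 and -0.133 in the stratum intermedium. For the library group number the correlations were 0.273 and 0.116 in ameloblasts and 0.186 and 0.00593 in the stratum intermedium, over 2 pairs each. The 2 WT libraries mirror each other, so 0.116 and 0.186 are values of the replicate numbers with the sign turned. These correlations thus do not decide between the numberings. Library group number as a block takes out KO1, the only library of its group number in each layer, so the estimates equal those without KO1. Lama3 in ameloblasts was then -0.21 and stratum intermedium Plec -0.086 and Cd151 -0.089. The fit with sex as a covariate sets KO9 alone against the WT libraries. It gave -1.09 for Lama3 in ameloblasts and -0.055 and -0.17 for Plec and Cd151 in the stratum intermedium. Lamb3, Itgb4 and Col17a1 in the stratum intermedium moved to -0.98, -0.95 and -0.94. Library weights gave -0.0073 for stratum intermedium Cd151 and 0.10 for Plec in the layer difference. Relative to Krt5 and Krt14, Plec in ameloblasts was -0.16 and Dst in the stratum intermedium 0.032.

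Leaving out 1 library gave these ranges. In ameloblasts they were -0.24 to 1.20 for Itga6, -0.76 to 1.43 for Itgb4, -0.30 to 0.96 for Col17a1, -0.30 to 0.94 for Dst, -0.14 to 1.53 for Lamb3 and -0.21 to 1.80 for Lama3. In the stratum intermedium they were -0.63 to 0.042 for Itga6, -0.57 to 0.084 for Itgb4, -0.54 to 0.078 for Col17a1, -0.36 to 0.061 for Dst, -0.086 to 0.39 for Plec, -0.46 to 0.12 for Lamb3 and -0.19 to 0.28 for Cd151. For the layer difference they were -0.19 to 1.38 for Itgb4, -0.24 to 0.34 for Plec and -0.064 to 1.95 for Lamb3. For KO minus WT of ratios they were -0.51 to 0.22 (ameloblasts) and -0.14 to 0.28 (stratum intermedium) for Itgb4 to Itga6, -1.32 to 1.04 and -0.12 to 0.26 for Lamb3 to Lama3, -0.46 to 0.46 and -0.072 to 0.071 for Col17a1 to Itgb4, and, in ameloblasts, -0.32 to 0.68 for Dst to Plec and -0.22 to 0.33 for Cd151 to Itga6. Between layers they were -0.15 to 0.047 for Col17a1 to Itgb4 and -0.20 to 0.049 for Cd151 to Itga6. The reads behind each value are unknown, so counting error could not be separated from the spread between libraries.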
